A study of Mus musculus with 12 samples.

Results

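The 8 genes described here are 5 long noncoding RNAs (Malat1, Neat1, Meg3, H19 and Rmst) and 3 small nucleolar RNA (snoRNA) host genes (Gas5, Snhg1 and Snhg12). The rule takes them by gene name: every cytosine whose annotation held one of these symbols was taken from each library. Of the 17203 genes with a listed cytosine in any library, 7 were members, and Rmst had none. RNA bisulfite sequencing (RNA BS-seq), in which unmethylated cytosines are read as thymines, was performed on adult neural stem cells (NSCs) cultured from the subventricular zone of wild-type male C57BL/6 mice of 6 to 8 weeks. The cells were grown in EGF and bFGF for 4 days in medium whose folic acid was low at 1.5 μM (LF), medium at 10 μM (MF) or high at 80 μM (HF). Poly(A) RNA was taken from total RNA (LF, MF and HF) and from the heavier, polysome fractions of a sucrose gradient run after cycloheximide (pLF, pMF and pHF), with 2 replicates of each of the 6 groups and 12 libraries in all. No group carried a genetic change, and the methods give the same culture for polysome and total libraries. They describe cycloheximide only for the polysome fractions, so polysome against total is a contrast of RNA fractions that may include this step.

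Long noncoding RNAs are transcribed and processed much like mRNAs but are not known for a protein product. Malat1 and Neat1 are nuclear RNAs of speckles and paraspeckles. Malat1 ends in a triple helix in place of a poly(A) tail, while the short form of Neat1 is polyadenylated and the long form is not. Meg3 and H19 are imprinted, and Rmst is a neural transcript that binds Sox2. In snoRNA hosts the snoRNAs lie in introns and are released by splicing, and the spliced exons are exported. Spliced Gas5 is known to be held on ribosomes without a long reading frame and to be removed by nonsense-mediated decay. Polysome RNA is the RNA sedimenting with several ribosomes, so it holds cytoplasmic RNA that is being translated or is bound to the same complexes.

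Each deposited list holds cytosines with a coverage of at least 10 reads and at least 1 methylated (unconverted) read. A cytosine that is not listed had either less coverage or no methylated read, and the lists do not tell which. Cytosines with a level under 0.05 are called background cytosines here, and their median coverage was used as the level of a gene's RNA. The libraries held 779105 to 2043837 cytosines each. The libraries labelled HF stood apart: over genes, their coverage correlated with that of the LF and MF libraries at 0.72 to 0.756, against 0.899 to 0.911 among LF and MF. At the positions of the published list of sites, equal coverage and methylated reads were found at 57 to 128 sites in each of the other 10 libraries and at 0 in both libraries labelled HF, so these are called by their label only. The second pHF library held 38353 cytosines with a level over 0.9, against 1102 to 3465 in the others. Of 9 NSC markers 8 were listed in every library, with a summed median coverage of 33019 to 64115.5 (Sox2 had no listed cytosine). Markers of fibroblasts and pericytes summed to 5021 to 7530 in total and 2212.5 to 6000.5 in polysome libraries, those of neurons to 612 to 1209, and those of astrocytes, oligodendrocytes, microglia and endothelial cells to at most 409.5. The part of other cells in the results below was not tested.

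The members lay at these places in GRCm38 (RefSeq). Malat1, a single exon, was at chr19:5795690-5802672 on the minus strand, and Neat1, also unspliced, at chr19:5824708-5845480 on the minus strand. Meg3 was at chr12:109540996-109571729 (plus), H19 at chr7:142575530-142578146 (minus) and Rmst at chr10:92081746-92165178 (minus). Gas5 was at chr1:161034601-161038539 (plus) with 13 exon blocks, Snhg1 at chr19:8723487-8726326 (plus) with 10, and Snhg12 at chr4:132308678-132311024 (plus) with 5. GENCODE placed 8 snoRNA genes inside Snhg1 and 4 inside Snhg12, and 9 small RNA genes of the snoRNA class inside Gas5. The exons of the hosts were short, with 620 bases in Gas5, 476 in Snhg1 and 606 in Snhg12. All 5278 entries of the members lay on the strand of the gene, and the 21 bases around each were equal to GRCm38.p6.

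Malat1 had more listed cytosines than any other member in every total library, and far fewer in polysome RNA. Listed cytosines numbered 534 and 511 in LF, 483 and 575 in MF, 482 and 424 in HF, 12 and 23 in pLF, 8 and 54 in pMF, with 53 and 30 in pHF. Every total library was above every polysome library. On log2(listed cytosines per 1000000 listed in the library + 1), the polysome-total difference was -3.54 (SE 0.36, limma adjusted p = 3.0e-05, n = 6 against 6), an 11.7-fold lower number. Of the 13019 genes tested, 23.7% were called lower and 17% higher. Centring each library on its median over genes raised the differences by 0.20 and made these shares 19.7% and 22.1%, with Malat1 at -3.34. Of the 1196 cytosines of Malat1, 992 were listed in some library: 857 of them in total libraries only, 135 in both fractions and 0 in polysome libraries only.

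The median background coverage of Malat1 was lower as well. It was 1980 and 1585 reads in LF, 2516 and 1711 in MF, 437 and 758 in HF, 369 and 513 in pLF, 338 and 530 in pMF, with 405.5 and 364.5 in pHF. The LF and MF libraries lay above all polysome libraries, and the first HF library lay within the polysome range. Centred on each library's median over genes, the difference was -1.20 on the log2 scale (SE 0.29, limma adjusted p = 0.0103), a 2.29-fold lower coverage. Without the HF and pHF libraries it was -1.43 (limma adjusted p = 0.00686). By concentration, in the fit of all 12 libraries, it was -1.46 for pLF against LF (limma adjusted p = 0.0784). It was -1.40 for pMF against MF (adjusted p = 0.0917) and -0.73 for pHF against HF (adjusted p = 0.348). In this fit 14.7% of 8684 genes were called lower and 19.1% higher. Scaling by summed coverage raised the differences by 0.30 and made these shares 6.7% and 27.7%, with Malat1 at -0.90 (adjusted p = 0.031). In these bulk samples, how the RNA of a fraction is spread over cells cannot be told.

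**Figure D1:**
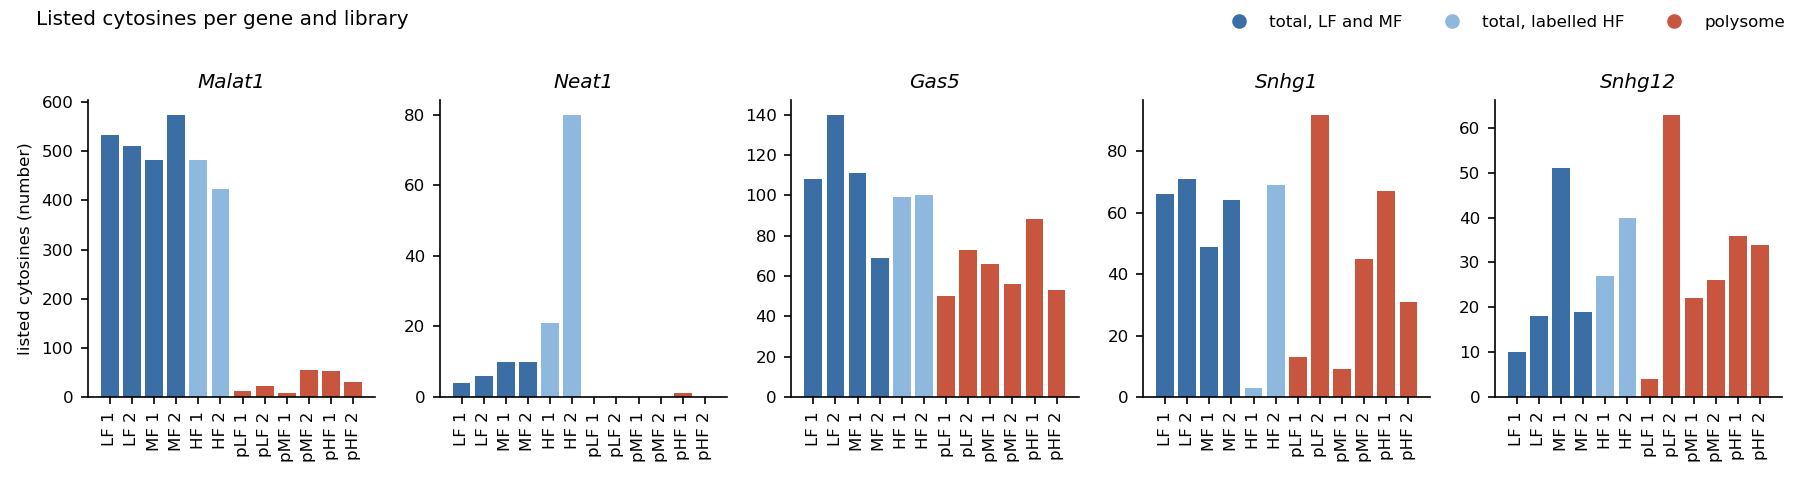
Number of listed cytosines (bars, y axis from 0) of 5 members in each of the 12 libraries (x axis). Malat1 falls from 424 to 575 in total to 8 to 54 in polysome libraries, Neat1 is listed almost only in total libraries, and the 3 snoRNA hosts overlap between the fractions.

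The cytosines of Malat1 in polysome lists lay mostly near its 5′ end. In the first 500 bases from the start, the median coverage of a library was 7276.5 to 9284 in LF and MF, 1445 and 1492 in HF, and 274.5 to 503.5 in polysome libraries. In the next 500 bases it was 6206 to 7697 in LF and MF, 978.5 and 929 in HF, and 393 to 986 in polysome libraries. In bases 1001 to 1500 it was 6132 to 7952 in LF and MF, 3728 and 2925 in HF, and 118 to 472.5 in polysome libraries. Of the 180 polysome entries, 104 fell in the first 1000 bases, 33 in bases 1001 to 1500 and 9 beyond base 3000. Of the 3009 total entries, 573 fell in the first 1000 bases and 1220 beyond base 3000. A cytosine is listed only with a methylated read, and the part of depth in this difference was not tested. The first windows were the deepest in LF and MF but not in HF. The whole-gene median therefore compared different stretches of the RNA.

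The coverage was then compared at the same cytosines. Between each polysome and each total library of the same folic acid concentration, 7 to 51 background cytosines of Malat1 were shared. Relative to the median over all shared cytosines, Malat1 was lower in all 12 pairs, by -3.77 to -1.87 on the log2 scale with a median of -3.08, or 8.45-fold. The 8 pairs of LF and MF lay between -3.77 and -2.73 and the 4 of HF between -3.18 and -1.87. These pairs share libraries and are a description.

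**Figure D2:**
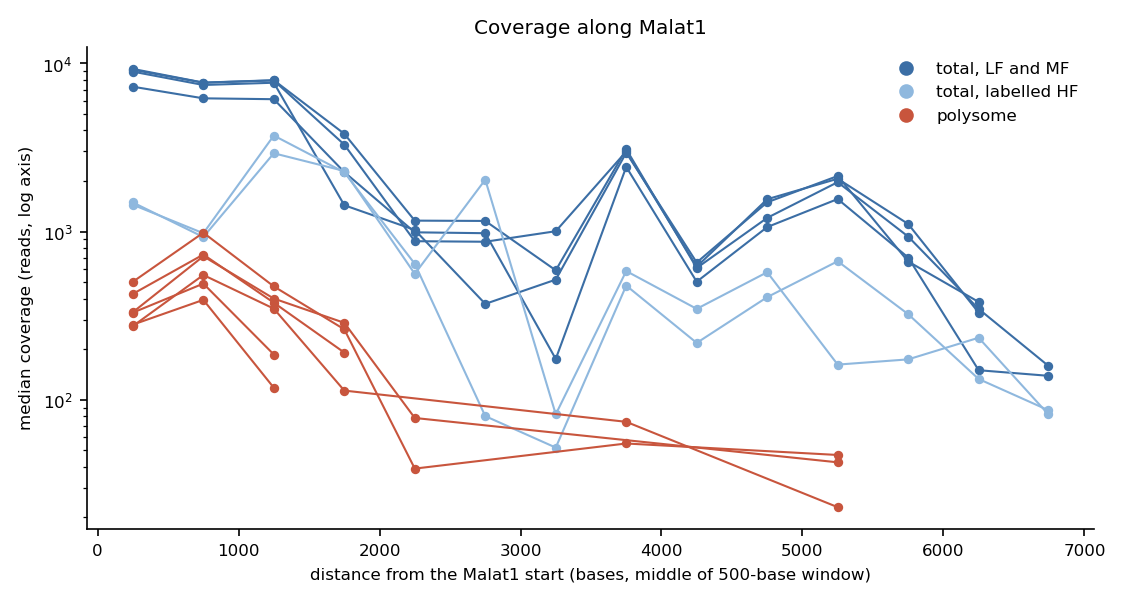
Median coverage of background cytosines of Malat1 (y axis, reads, log scale) in windows of 500 bases by distance from its start (x axis), 1 line per library. Total LF and MF libraries run highest at the start (7276.5 to 9284 reads), libraries labelled HF start at 1445 and 1492, and polysome libraries start under 504 and have few points beyond base 3000.

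The Malat1 cytosine listed in most libraries (9 of 12), at chr19:5801909 and 764 bases from the start, is shown with the measured cytosine in capitals.
Malat1: acgaagaagaCatacaggaag
Its coverage was 11118 and 8501 reads in LF, 10673 and 10360 in MF and 1179 in the second HF library, against 1535 in pLF replicate 2, 578 and 1662 in pMF and 1268 in pHF replicate 1. The level was 0.0193% to 0.173% in these libraries, from 1 to 10 methylated reads. The LF and MF libraries had the highest coverage, while the levels overlapped.

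Neat1 was thinly covered in total RNA and nearly unlisted in polysome RNA. It had 4 and 6 listed cytosines in LF, 10 and 10 in MF, 21 and 80 in HF, 1 in the first pHF library (coverage 14) and 0 in the other 5 polysome libraries. The total libraries did not overlap with the polysome libraries, and the 2 highest numbers were those of the libraries labelled HF. The difference on the log2 scale was -2.85 (SE 0.40, limma adjusted p = 0.000242). Neat1 passed the filter of the fit only through its total libraries, so the direction was set by the filter, and the size moved from -5.54 to -0.87 with a pseudocount of 0.1 or 10. All 131 entries in total libraries and the single polysome entry lay in the first 3185 bases, which the short polyadenylated form covers, and 0 lay in the rest of the long form. The median background coverage was 29.5 to 255 reads in total libraries.

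Meg3 and H19 had few listed cytosines in both fractions and Rmst had none. H19 had 1 listed cytosine in both LF libraries and in the first MF library, 4 in the first HF library, and 1 each in 4 polysome libraries, with a highest coverage of 35 reads. Meg3 had 2 in the first HF library and 2 in the second pHF library, with a highest coverage of 25. Rmst had 0 in all 12. None of these 3 passed a filter, and their polysome-total difference could not be measured. A gene without listed cytosines is not shown to be unexpressed: the NSC marker Sox2 had none either.

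Gas5, a snoRNA host, had a higher coverage in polysome RNA. It had a median background coverage of 1205 and 1181 reads in LF, 669 and 2513.5 in MF, 1148 and 79 in HF, 2921 and 4312 in pLF, 2047 and 3361.5 in pMF, with 2782.5 and 5291 in pHF. One total library, the second MF library, lay within the polysome range. The centred difference was 2.52 on the log2 scale (SE 0.55, limma adjusted p = 0.00677), a 5.75-fold higher coverage in polysome RNA. It was 1.90 without the second HF library, where Gas5 had its lowest coverage, and 3.14 without the first. Without the HF and pHF libraries it was 2.02 (limma adjusted p = 0.00867). By concentration, in the fit of all 12 libraries, it was 2.13 for pLF against LF (limma adjusted p = 0.167). It was 1.91 for pMF against MF (adjusted p = 0.214) and 3.53 for pHF against HF (adjusted p = 0.0374). The number of listed cytosines did not separate the fractions: it was 69 to 140 in total and 50 to 88 in polysome libraries (log2 difference 0.06, SE 0.27, adjusted p = 0.878).

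The whole-gene median of Gas5 also counted intronic cytosines, which were less covered than those of its exons. Outside its RefSeq exons, Gas5 had 44 and 52 background cytosines in LF, 54 and 14 in MF, and in HF 27 and 58, with library medians of 57 to 182.5 reads. In polysome RNA it had 0 in pLF and pMF and 8 and 1 in pHF, with medians of 26.5 and 28. By these counts the groups did not overlap. By listed intronic cytosines they did: the first pHF library had 29, against 15 in the second MF and 27 in the first HF library. The other polysome libraries had 0 to 2. In exons alone the median was 1465 to 3979.5 reads in total libraries (median of 6, 2765.5) and 2047 to 5784.5 in polysome libraries (median of 6, 3357.25), and these overlapped before centring. The centred difference in exons was 0.96 (SE 0.16, limma adjusted p = 0.00161), or 1.95-fold, with 19.3% of 8439 genes called higher in exons. Leaving out the cytosines outside exons took the log2 difference from 2.52 to 0.96, and at cytosines listed in all 12 libraries it was 0.76 (adjusted p = 0.00018).

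Snhg1 and Snhg12 showed a higher coverage in polysome RNA by a filter that was lowered after their values were seen. Snhg1 had fewer than 5 background cytosines in the first HF library and Snhg12 in the first pLF library, so neither entered the first fit. At that filter, Snhg1 was 2.11 without the first HF library (SE 0.33, adjusted p = 0.00227) and 2.06 without the HF and pHF libraries (SE 0.38, adjusted p = 0.00775), and Snhg12 was 2.50 without the first pLF library (SE 0.66, adjusted p = 0.0203). With at least 3 cytosines in every library, the log2 difference was 2.16 for Snhg1 (SE 0.30, adjusted p = 0.000596) and 2.39 for Snhg12 (SE 0.58, adjusted p = 0.0107), and 19.4% of 9358 genes were called higher. In exons with the same filter they were 2.40 (SE 0.21, adjusted p = 5.94e-05) and 2.09 (SE 0.49, adjusted p = 0.00899), with 19.7% of 9057 genes called higher. These are limma values. By the number of listed cytosines neither was called in the fit of all 12 libraries, and for Snhg12 this depended on the first pLF library. Snhg1 had 3 to 71 in total and 9 to 92 in polysome libraries (log2 difference 0.40, SE 0.66, adjusted p = 0.659; -0.27 without the first HF library, which held 3). Snhg12 had 10 to 51 in total and 4 to 63 in polysome libraries (0.71, SE 0.54, adjusted p = 0.311). With each library left out in turn this difference ran from 0.22 without the second pLF library to 1.20 without the first, which held 4.

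The library values of these 2 hosts follow. Exonic coverage of Snhg1 was 229 and 442 reads in LF, 445 and 419.5 in MF, 193 and 197 in HF, 493 and 1001 in pLF, 1276 and 1416 in pMF, with 910 and 2178 in pHF. All polysome libraries lay above all total libraries, though the first HF library had only 3 such cytosines. The medians drew on different exon blocks: blocks 2 and 3 gave 1 to 28 cytosines in total and 0 to 28 in polysome libraries. In block 2 the library medians were 70 to 179.5 in total and 33 to 81 in polysome RNA. In block 3 they were 112 to 257 and 136.5 to 621. Exonic coverage of Snhg12 stood at 257 and 387 in LF, 182 and 313 in MF, 1047 and 95 in HF, 456.5 and 883 in pLF, 593 and 1010.5 in pMF, with 1034 and 1516 in pHF. By these medians, the first HF library was the only total library within the polysome range. They also drew on different exon blocks: the second HF library had 756 reads in block 1, 94 in block 2 and 76 in block 3. In block 1 the library medians were 251 to 1046.5 in total and 395 to 1719 in polysome RNA. In block 2 they were 94 to 1153 and 524 to 1648.5. Outside exons, Snhg12 had 1 to 32 background cytosines in total libraries and 1 in a single polysome library, while Snhg1 had 0 to 29 in total and 0 to 5 in polysome libraries.

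**Figure D3:**
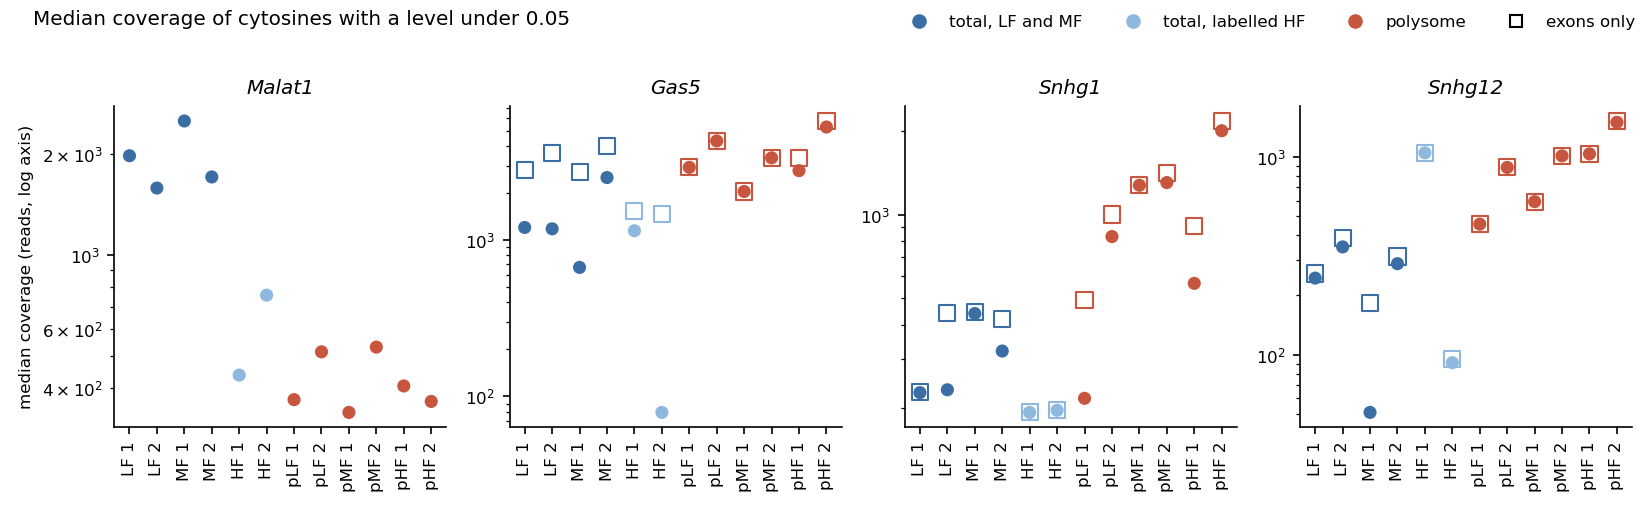
Median coverage of background cytosines (y axis, reads, log scale) of 4 members in each library (x axis). Filled circles are whole genes and open squares exons only. Malat1 is lower in polysome libraries than in LF and MF while the first HF library overlaps them, the exonic values of Snhg1 do not overlap between the fractions, and the whole-gene and exonic values of Gas5 differ mainly in total libraries.

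The positions inside snoRNA genes had few listed cytosines, and reads of a snoRNA were not told apart from reads of the host intron. Snord22 in Snhg1 had 25 entries over 5 total and 5 polysome libraries with a coverage of 41 to 302 reads, Snord99 in Snhg12 had 5 entries with 21 to 102 reads, and all other small RNA genes inside the hosts were listed in 1 library or in none.

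The coverage along the exons also differed between the fractions. In Gas5, the median over exon blocks 3 to 5 divided by that over blocks 10 to 12 came to 0.458 and 0.501 in LF, 0.355 and 0.487 in MF, 0.923 and 0.824 in HF, 1.92 and 2.45 in pLF, 2.12 and 2.33 in pMF, with 2.73 and 1.88 in pHF. The 5′ blocks were less covered than the 3′ blocks in all total libraries and more covered in all polysome libraries, and the ratio does not depend on a scaling between libraries. In block 5 the library medians were 1515 to 3572 reads in total and 5312 to 13452 in polysome RNA, and in block 11 they were 1531 to 4465 and 1407 to 3806.5. In Snhg1 the 5′ blocks were the less covered ones in both fractions: blocks 2 and 3 over blocks 5 to 8 gave 0.386 to 0.487 in the LF, MF and second HF libraries, 0.657 in the first HF library, with 1 cytosine over 2, and 0.0547 to 0.228 in the 5 polysome libraries with values, of which 3 rested on 1 or 2 cytosines in blocks 2 and 3. These blocks were chosen after the profiles were seen, and no test was made of them.

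**Figure D4:**
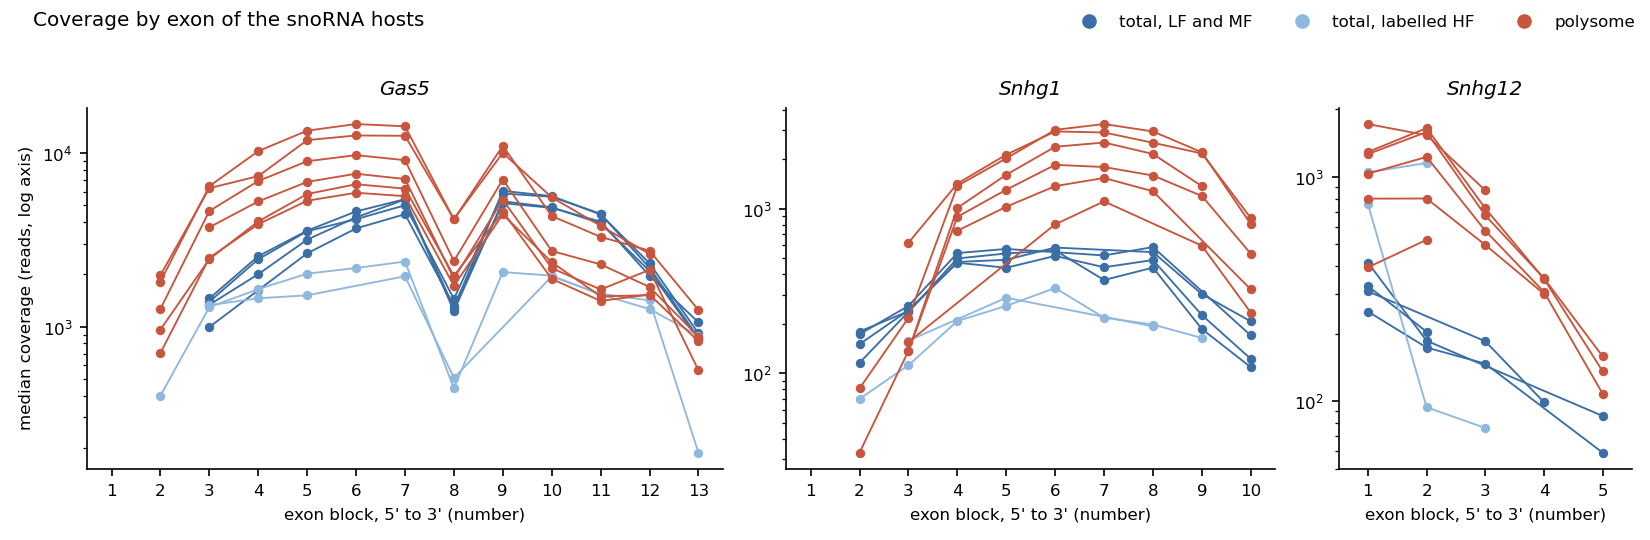
Median coverage of background cytosines (y axis, reads, log scale) in each exon block from 5′ to 3′ (x axis), 1 line per library, for the 3 snoRNA hosts. In Gas5 every polysome line lies above every total line in blocks 3 to 8 and overlaps them in blocks 9 to 12. In Snhg1 the polysome lines lie above the total lines from block 4 on. In Snhg12 the total lines of the second LF library and both HF libraries overlap the polysome lines in block 1, and that of the first HF library in block 2.

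At cytosines shared by a polysome and a total library of the same concentration, Gas5 was higher in 12 of 12 pairs (log2 0.10 to 2.23, median 1.28, over 30 to 63 cytosines). Snhg1 was between -0.71 and 2.99 over 11 pairs with a median of 2.45 and 3 to 58 cytosines, and both the single pair under 0 and the highest pair rested on 3. Snhg12 was higher in 12 of 12 pairs (0.04 to 3.43, median 1.19) over only 1 to 16 cytosines.

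Transcript starts are shown because many snoRNA hosts begin with a terminal oligopyrimidine tract, a C followed by C and T bases that marks RNAs regulated with the translation machinery. Of the members, 5 had a start in the RefSeq table (GRCm38.p6). Each line gives the last 10 bases before the start and the first 20 of the transcript, with the run of C and T from the first base in capitals where that base was C.
Gas5 (start inside chr1:161034916-161035215): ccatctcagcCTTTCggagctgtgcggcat
Gas5 (start inside chr1:161034351-161034650): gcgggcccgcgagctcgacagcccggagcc
Snhg1 (start inside chr19:8723237-8723536): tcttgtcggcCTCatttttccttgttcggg
Snhg12 (start inside chr4:132308428-132308727): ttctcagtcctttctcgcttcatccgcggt
Malat1 (start inside chr19:5802623-5802922): ggctctgcgtCaggcattcaggcagcgaga
A C at the first base followed by 4 bases that were each C or T, read on the transcript strand only, stood at 1 of the 2 Gas5 starts and at no start of the other 4 members in the table. The Meg3 starts were counted but are not shown. The count rests on the exact annotated base: the Snhg12 start is a T directly after a C, and a start 1 base earlier would have been counted. Such a C stood at 2.51% of all 32851 starts. By gene, with any start counted, it stood in 3.01% of all 27025, in 2 of 16 other snoRNA hosts and 3 of 16 other long noncoding RNAs.

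No cytosine of the members was called methylated (20 or more reads, 6 or more of them methylated, and a level of 0.1 or above) in any library. The members had 628 to 732 cytosines with a coverage of at least 20 in total and 79 to 250 in polysome libraries. A count of 0 allows a share of up to 0.41% to 0.478% in total and 1.2% to 3.8% in polysome libraries, counting error only. Over all genes 0.111% to 0.763% of such cytosines were called. In no single library could this depth show a share below that of all genes.

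Only 3 entries of the members reached a level of 0.1 at a coverage of 20, each from fewer than 6 methylated reads. They are shown with the measured cytosine in capitals.
Snhg1 chr19:8723992, HF replicate 2: agtgcaaggcCaccccctatg
Snhg12 chr4:132309909, pHF replicate 1: gtctggtaagCtccgtttagt
Snhg12 chr4:132310941, pMF replicate 1: ccagcctggcCtacattgaga
The Snhg1 cytosine, in an intron, had 3 methylated of 22 reads (13.6%) and was listed in no other library. The first Snhg12 cytosine, also intronic, had 4 of 24 reads (16.7%) and a level of 2.5% at 40 reads in the other library that listed it. The second, in the last exon block, had 2 of 20 reads (10%) and was listed nowhere else. None was high in both replicates of a group.

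Meg3, H19 and Rmst had no cytosine with a coverage of at least 100, and Neat1 had some in 2 total libraries, with a highest level of 1.06% and 1.71%. In the other members the highest levels at that coverage were 1.48% to 4.29% in total and 0.971% to 5.41% in polysome libraries for Malat1, and 0.634% to 3.4% and 0.292% to 0.642% for Gas5. Snhg1 reached 0.962% to 2.88% and 0.8% to 1.82%, and Snhg12 0.439% to 2.94% and 0.609% to 1.34%. Many entries rested on 1 methylated read: 37.4% to 69.6% of Malat1 cytosines in total and 43.5% to 66.7% in polysome libraries, and 32.3% to 76% and 2.78% to 32.1% of Gas5 cytosines. For Snhg1 the shares were 49.3% to 89.4% and 18.5% to 61.2%, for Snhg12 48.1% to 91.8% and 35.3% to 68.3%, and for Neat1 57.1% to 100% in total libraries. Over all genes the share was 43.5% to 60.8%.

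Of the 8 members, Gas5 alone had cytosines listed in all 12 libraries, 8 in number, and the one in exon block 5 at chr1:161036235 is shown. The cytosines listed most often in Snhg1 (chr19:8725500, 10 libraries) and Snhg12 (chr4:132308806, 9 libraries) are given beside it.
Gas5: gataacagagCgagcgcaatg
Snhg1: gtgtgtctggCtgagaacaaa
Snhg12: cgtgagatacCgagcctgccg
The Gas5 cytosine had levels of 0.244% and 0.028% in LF, 0.147% and 0.464% in MF, 0.147% and 0.119% in HF, 0.0959% and 0.0766% in pLF, 0.121% and 0.212% in pMF, with 0.0806% and 0.0505% in pHF. The fractions overlapped, at 1686 to 3572 reads in total and 5217 to 13082 in polysome libraries. The Snhg1 cytosine pooled to 0.133% over 16490 reads and the Snhg12 cytosine to 0.273% over 6597 reads.

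The pooled level of a gene is the share of methylated reads over its cytosines with a coverage of at least 20. For Malat1 it stood at 0.0892% and 0.102% in LF, 0.0925% and 0.0916% in MF, 0.197% and 0.163% in HF, 0.711% and 0.314% in pLF, 0.474% and 0.29% in pMF, with 0.295% and 0.524% in pHF. The log2 polysome-total difference was 1.82 (SE 0.22, limma adjusted p = 1.44e-05) and 50.6% of 8871 genes were called higher. Since a cytosine is listed only with a methylated read, its level cannot fall below 1 read in its coverage. Malat1 had a higher level and a lower median background coverage in polysome than in LF and MF libraries. The pooled level weights cytosines by their coverage and the median does not, so the median is not its depth. The first HF library had a median of 437 reads, a highest coverage of 4484 and a level of 0.197%. The second pLF library had a median of 513 reads, a highest coverage of 1535 and a level of 0.314%. No Malat1 cytosine was listed in all 12 libraries, so the level could not be tested at shared cytosines, and the part of coverage in the difference was not tested. For Gas5 the level was 0.107% to 0.265% in total and 0.0843% to 0.152% in polysome libraries, and the difference was -0.59 (SE 0.14, adjusted p = 0.00259), with 7.73% of genes called lower. The Gas5 call was lost without the HF and pHF libraries (-0.11, adjusted p = 0.594) and at cytosines covered in all 12 libraries (-0.13, adjusted p = 0.679). Its polysome-total difference was lower by 1.50 on the log2 scale for the libraries labelled HF and pHF than for MF and pMF (SE 0.34, limma adjusted p = 0.0137). In that contrast 16.4% of genes were called lower.

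For coverage, the measure tested for folic acid, no call was made for Malat1 or Gas5, the 2 members tested, in any of 4 contrasts against 10 μM by limma. At an unadjusted p under 0.05 there was 1, Malat1 in HF against MF (log2 -1.35, SE 0.50, adjusted p = 0.139), a contrast in which 1974 of 8684 genes had such a p. The centred Malat1 values were spread within both groups, at 0.19 and 1.14 in HF and 2.37 and 1.66 in MF. Gas5 had -1.60 in the same contrast (SE 0.96, adjusted p = 0.358), which was -3.46 (adjusted p = 0.0367) without the first HF library and 0.25 (adjusted p = 0.863) without the second. It was -0.64 in exons (adjusted p = 0.203) and -0.53 at cytosines listed in all 12 libraries (adjusted p = 0.0506). In LF against MF the values were -0.13 for Malat1 and -0.02 for Gas5. In polysome RNA they were -0.20 and 0.20 in pLF against pMF, and -0.68 and 0.01 in pHF against pMF, with SEs of 0.50 and 0.96. The Malat1 value of -0.68 was -1.30 without the first and -0.044 without the second pHF library. Over all genes 0% were called in LF against MF (186 at an unadjusted p under 0.05) and 7.08% in HF against MF. The shares were 0.127% in pLF against pMF and 0.0115% in pHF against pMF. In HF against MF, folic acid cannot be told apart from what else sets the libraries labelled HF apart. No site of a member entered the site tests, which held 352 sites for polysome against total by limma and 703 to 1842 for folic acid by Fisher's exact test.

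Other noncoding genes were counted in the same fits. Of 19 further snoRNA hosts 15 had a listed cytosine and 7 were tested for coverage: 3 were higher in polysome RNA (19.1% of all genes), 0 lower (14.7%) and 4 not called, with a median log2 difference of 0.76 against 0.05 over all genes tested. These coverage values, and those of the other long noncoding RNAs below, are on whole genes with cytosines outside exons counted. Their values in exons are not given here, and for Gas5 that choice took the difference from 2.52 to 0.96. The highest were 2410006H16Rik (2.05, SE 0.23, adjusted p = 0.00021) and Snhg5 (1.71, SE 0.37, adjusted p = 0.00615), and the lowest were Snhg8 (-0.10, adjusted p = 0.786) and Zfas1 (0.25, adjusted p = 0.352). Snhg17 (1.23, adjusted p = 0.024) is the other host called and was named after its value was seen. By listed cytosines 3 of 10 hosts were higher (17% of all genes) and 3 lower (23.7%), with a median of 0.35 against -0.10 over all genes. The highest were Epb41l4aos (1.20, adjusted p = 0.0258) and 2410006H16Rik (0.92, adjusted p = 0.0456), and the lowest were Snhg18 (-2.01, adjusted p = 0.0326) and Snhg20 (-1.99, adjusted p = 0.00575). Zfas1 (0.90, adjusted p = 0.0344) and Snhg15 (-1.42, adjusted p = 0.0217) complete these counts and were named after their values were seen. The direction of 2 was set by the filter of 5 listed cytosines in 2 libraries, which Snhg20 reached only with total and Epb41l4aos only with polysome libraries.

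Of 25 other long noncoding RNAs 20 had a listed cytosine and 6 were tested for coverage, with 1 lower (2900097C17Rik, -1.13, SE 0.18, adjusted p = 0.00123), 0 higher and a median of -0.14. At an unadjusted p under 0.05, which 3918 of 8684 genes had in either direction, Sox2ot was on the higher side and Peg13 joined 2900097C17Rik on the lower. Peg13, an imprinted RNA, had -0.90 (adjusted p = 0.099), and the highest were Pvt1 (0.60, adjusted p = 0.378) and Sox2ot (0.53, adjusted p = 0.103). By listed cytosines 16 were tested: 12 were lower (23.7% of all genes) and 1 higher (17%), with a median of -1.52 against -0.10 over all genes. Of these 16, 8 reached the filter of 5 listed cytosines in 2 libraries only with total libraries counted, so that their direction was set by the filter and their size by the pseudocount, and 7 of the 8 were among the 12. Of the other 8, 5 were lower and 1 higher. The lowest of all, both passing only through total libraries, were Miat (-6.26, adjusted p = 2.88e-06), a nuclear RNA, and Airn (-4.33, adjusted p = 5.61e-05), an imprinted antisense RNA, and the highest were Lncpint (1.89, adjusted p = 0.0194) and Pantr1 (-0.31, adjusted p = 0.49). All of these are limma values. Miat had 0 listed cytosines in pMF and pHF and Airn had 0 in pLF and pMF.

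**Figure D5:**
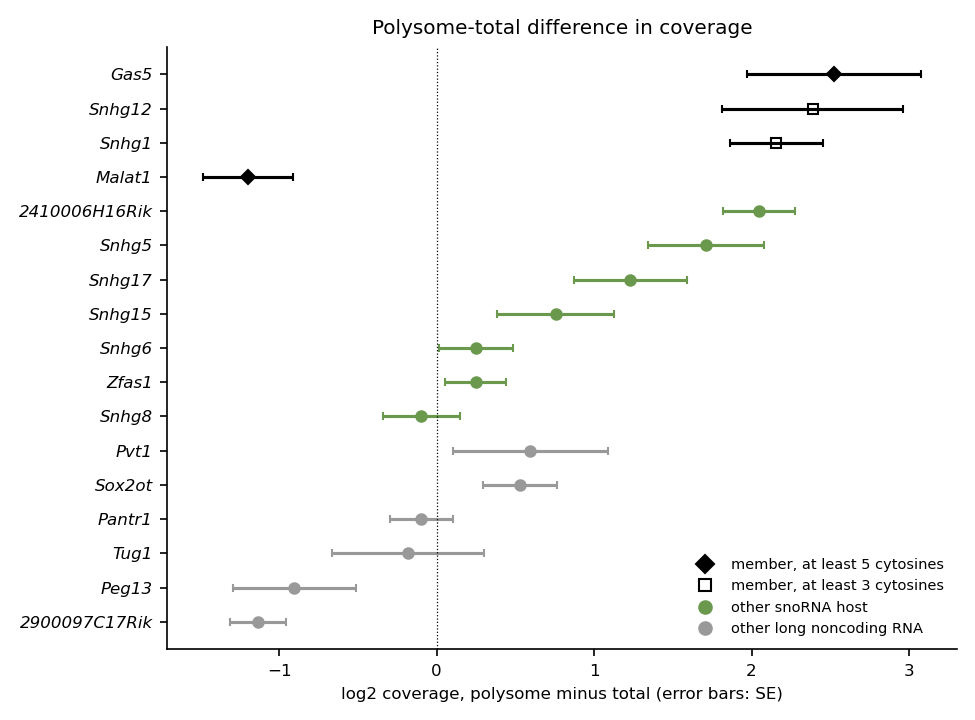
Polysome minus total difference in centred log2 coverage (x axis, points with SE bars) of 4 members, 7 other snoRNA hosts and 6 other long noncoding RNAs. Malat1 lies at -1.20 and Gas5, Snhg12 and Snhg1 at 2.52, 2.39 and 2.16, and all values drawn are on whole genes. Filled symbols rest on at least 5 and open squares, Snhg1 and Snhg12, on at least 3 background cytosines, so the values of the 2 kinds are not ranked. In exons Gas5 lies at 0.96 (not drawn).

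Over the 12 libraries, the centred coverage of Malat1 was most like that of Wwtr1 (Pearson r = 0.921), Elk1 (0.91) and Lysmd2 (0.903), and that of Gas5 most like Elp6 (0.951), Qtrt1 (0.949) and Clns1a (0.949). These are descriptions, with no test, over libraries that share the split into total and polysome RNA.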

How the data were processed

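RNA BS-seq lists of 12 libraries were used, 1 per library. The authors used fastp for trimming, meRanGh for unique alignment to mm10 and meRanCall to call cytosines (coverage of at least 10, at least 1 methylated read), and meRanAnnotate added gene names. The authors' later filters are not applied in these lists. The deposited counts are the coverage, the methylated reads and the reads with another base at each cytosine, not normalized. The deposited level is a fraction, methylated reads over methylated plus converted reads, made by the authors per library. No read count per gene was used, so a gene's level is a median coverage of background cytosines (level under 0.05) and its depth is that coverage.

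Entries with a variant state were left out. Groups came from the sample titles. The members and lists were chosen with earlier results of these data known. Tests were limma 3.58.1 in R 4.3.3 (trend, Benjamini-Hochberg over all genes, threshold 0.05, 6 groups, contrast the mean of the 3 polysome-total differences) on log2 values: median coverage centred per library (at least 5 background cytosines in every library), listed cytosines per 1000000 plus 1 (at least 5 in 2 libraries) and pooled level (at least 5 cytosines with a coverage of 20). Site tests for folic acid were two-sided Fisher's exact tests on reads pooled over replicates. The study also names Fisher's exact test but does not state the pooling or the sides, and its later site filters were not applied here. The text names all 8 members, sites called in 2 libraries (none), and the 2 highest and 2 lowest of each wider list. Exons, lengths and starts came from RefSeq GRCm38.p6, snoRNAs from GENCODE vM21. The fits were tested on simulated data. Python 3.11.15, numpy 2.4.6, pandas 2.3.3 and matplotlib 3.10.9 were used. The methods describe biological duplicates. Replicate numbers did not pair the samples: correlations of deviations over genes were -0.0571 to 0.0286 in 15 pairs of groups. Alternatives covered the cytosines used, scaling, filters, pseudocounts, exons, a replicate block, the HF and pHF libraries and each library left out. Exact coverage at cytosines without a methylated read is not analysed here.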

Additional observations from a re-analysis of the deposited data

Results flagged for a closer look

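The polysome-total difference in the pooled level of Gas5 was not the same for the libraries labelled HF and pHF as for MF and pMF. The HF libraries are known by their label only, so folic acid cannot be told apart from what else sets them apart. It was -1.55 on the log2 scale for pHF against HF and -0.04 for pMF against MF, and the difference between them was -1.50 (SE 0.34, limma adjusted p = 0.0137). The libraries labelled HF had Gas5 levels of 0.265% and 0.258%, against 0.107% to 0.154% in LF and MF and 0.0843% to 0.152% in polysome libraries. Their share of methylated reads over all background cytosines was 0.187% and 0.193%, against 0.139% to 0.148% in LF and MF and 0.128% to 0.191% in polysome libraries, and the part of that rise in the Gas5 value was not tested.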

How the results depend on the processing

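Among 287 values of single members under alternatives, 267 kept their direction and side of the threshold, 3 lost the call, 2 gained one and 15 turned sign. All 15 that turned had not been called. The alternatives with at least 3 background cytosines, and RefSeq exons for folic acid, were chosen after seeing the data. For polysome-total coverage, 2 members were called, against 1 with cytosines listed in all 12 libraries or with at least 20 background cytosines, where only 1 member was left to test, and 4 with at least 3, in whole genes or exons. It was 3 of 3 without the first HF library, without the first pLF library, or without the HF and pHF libraries, where Snhg1 or Snhg12 entered the test. Over all genes 2933 were called, and 1794 of the 2229 that could be tested at cytosines listed in all 12 libraries. For the pooled level, 2 members were called, 1 (Malat1) with the replicate block, where Gas5 kept its difference of -0.59 with a limma adjusted p of 0.0818, and 0 at cytosines covered in all 12 libraries, where all genes called fell from 5172 to 493 of 2559 tested. The replicate numbers were not found to pair the samples, and the block changed no other call of a member.

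Without the HF and pHF libraries, the difference in listed cytosines turned to -0.12 for Gas5 and -0.54 for Snhg1. With each library left out in turn it ran from -0.074 to 0.19 for Gas5 and from -0.27 to 1.07 for Snhg1. For LF against MF, Gas5 coverage was 0.18 at cytosines listed in all 12 libraries and 0.047 in exons, and leaving out libraries gave -0.90 to 0.86 for Gas5 and -0.48 to 0.22 for Malat1. For HF against MF, Gas5 ran from -3.46 to 0.25 and the members called from 0 to 1. For pLF against pMF, Malat1 ran from -0.55 to 0.16 and Gas5 from -0.18 to 0.59, and for pHF against pMF Gas5 ran from -0.37 to 0.40.

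Counts of all genes called for folic acid moved with single libraries. For LF against MF it was 0, with 1 in exons and 0 to 2 with a library left out. For HF against MF it was 615, with 1551 at cytosines listed in all 12 libraries and 41 (without the first MF library) to 784 (without the first pLF library). For pLF against pMF it was 11, with 0 at cytosines listed in all 12 libraries, 0 in a fit of the 4 libraries compared, and 0 to 46 with a library left out. For pHF against pMF it was 1, with 10, 0 and 6 (exons) in the same order and 0 to 3 with a library left out. The causes were not tested. The members with few or no listed cytosines gave the least: Meg3, H19 and Rmst gave no test, and Neat1 none for coverage.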
